A study of Mus musculus with 4 samples.

Results

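The genes for the proteins of the cytosolic ribosome were followed in mouse kidney ureteric buds cultured with angiotensin II (AngII) or with media alone. Members were all non-control probes whose accession maps to a mouse symbol that begins Rpl or Rps followed by a digit, Rplp or Rpsa, leaving out the Rps6k kinases and pseudogene symbols. The rule takes 120 of 41174 probes and 84 of 17305 named genes. Of these, 112 probes and 81 genes passed the filter on dim probes and were tested among 15005 features. Large subunit proteins are encoded by 48 of the tested genes and small subunit proteins by 32. The remaining one, Rps19bp1, fits the symbol rule but encodes a protein that binds RPS19 and is no ribosome subunit. Rpl21, Rpl3l and Rpl39l failed that filter: in neither RNA did a probe of theirs stand clear of background on all 4 arrays.

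Intact ureteric buds, the epithelial outgrowths that branch into the collecting ducts and ureter, were grown in matrix gel in DMEM/F12 with 10% FBS, 100 ng/ml GDNF and 100 ng/ml HGF. Both groups had this serum and these growth factors, and differed in whether AngII (1e-05 M) was present for 6 h. The labels give no genotype, strain, age or sex, and no number of buds or animals per RNA. They number the AngII RNAs and the media RNAs 1 and 2, and each numbered pair was hybridised to 2 two-colour arrays, once with AngII in Cy5 (red) and media in Cy3 (green), and once with the dyes swapped. The values below are log2 ratios of AngII over media, with the swapped arrays turned, so a positive value is a higher level under AngII on every array. A gene is said to rise or fall when the mean over the arrays passed limma's test at a Benjamini-Hochberg adjusted p under 0.05 over all 15005 features.

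Every translating ribosome holds a single copy of nearly every ribosomal protein, and their transcripts are among the most abundant in a cell. In mammals most of these messenger RNAs begin with a run of pyrimidines, the 5′ terminal oligopyrimidine (TOP) tract, through which the mTOR kinase and the RNA-binding protein LARP1 set how much of them is translated. Growth factor signals, MYC and RNA polymerase I govern the making of new ribosomes. Some ribosomal proteins, such as those encoded by Rpl5 and Rpl11, also bind the p53 inhibitor Mdm2 when assembly is disturbed.

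The starts of these genes are shown for members on which the results below turn. A TOP tract is described for most of the family, and not every start printed here has it. Each line gives 15 bases before and 15 from an annotated transcript start, 5′ to 3′ on the gene's strand, with the first 5 transcript bases in capitals. The sequences are RefSeq's, on build GRCm38.p6.
Rpl35a: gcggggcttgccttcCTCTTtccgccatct
Rps6: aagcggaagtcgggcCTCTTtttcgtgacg
Rplp2: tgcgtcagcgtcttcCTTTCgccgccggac
Rps27: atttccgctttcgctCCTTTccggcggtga
Rpsa: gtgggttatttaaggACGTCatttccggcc
Rps24: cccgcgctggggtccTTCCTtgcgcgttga
Rpl37a: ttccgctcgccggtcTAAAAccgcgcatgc
Rps27l: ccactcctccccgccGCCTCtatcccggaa

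These windows lie at chr16:33056467-33056496 (plus strand) for Rpl35a, chr4:86857353-86857382 (minus) for Rps6, chr7:141447636-141447665 (plus) for Rplp2 and chr3:90213634-90213663 (minus) for Rps27. Those of Rpsa, Rps24, Rpl37a and Rps27l, all on the plus strand, lie at chr9:120127751-120127780, chr14:24490663-24490692, chr1:72711245-72711274 and chr9:66946071-66946100. In each, the promoter ends with the last lower-case base before the capitals and the first exon begins with the capitals. A C followed by 4 bases that are each C or T begins the printed transcript start of the first 4 genes and not of the last 4. Rpl35a has 3 annotated windows, and Rps24 and Rps27l have 2 each, of which not all are printed. Where a gene had several, a window that begins in this way was preferred for printing. The 13 members' windows with such a start, counted below, belong to 13 genes, so the Rpl35a windows not printed lack it. Promoter windows of 300 bases were held for 64 of the 84 genes, 76 windows in all. A start of this kind was at the annotated first base in 13 of the 76 windows (17.1%), against 2.51% of all 32851 windows. The letters CGGAAG, looked for on both strands, were in 61.8% of the members' windows and in 16.9% of all. Read on the other strand these letters are CTTCCG, which can itself form a pyrimidine start, so the matches can overlap. TATAAA, on both strands, was in 9.21% of the members' windows and 13.6% of all. Annotated starts can be some bases away from those used in these buds, and a missing match says only that the letters are not at that place.

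The 4 arrays lay on 1 slide, and from 19034 to 21930 of 41174 probes per channel were read as well above background. No spot was saturated. Of 15 markers of ureteric bud epithelium fixed as a list, 14 were tested, among them Cdh1, Gata3, Pax2 and Hoxb7, and the receptor gene Ret was not well above background. Of the 14, 7 rose and 5 fell, among them Wnt9b (1.53) and Epcam (0.73) on the higher side and Wnt7b (-1.13) and Krt8 (-0.59) on the lower, which were named after their values were seen. Markers of other cell types were measured too. All 7 tested erythroid markers of 8 on the array rose, from 0.43 for Slc4a1 to 2.78 for Hbb-bt, and their median lay between 1.95 and 2.40 on the 4 arrays. Leukocyte markers rose in 3 of 4 tested and stromal markers in 4 of 6, and endothelial markers fell in 3 of 5 and nephron progenitor markers in 4 of 6. Over all 15005 features 77.3% passed, 39.1% higher and 38.1% lower. The part of these cells in the ribosomal protein ratios was not tested, and in whole buds fewer cells of a type and less RNA per cell cannot be told apart. The ratios of replicates 1 and 2 differed about as much as hybridisations of the same RNA did, and slightly more in the ribosomal protein genes. Over all features the SD of their half-difference was 1.02 times that of array noise alone, and over the ribosomal protein genes 1.11 times. The replicates were therefore counted as 1 independent pair of RNA samples, and the p-values measure only the spread between hybridisations. The 4 arrays limit the precision.

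Ribosomal protein genes went both ways under AngII, and as a family they shifted little. Of 81 tested genes 23 rose, 39 fell and 19 did not pass, so that 76.5% passed, against 77.3% of all 15005 features, of which 39.1% rose and 38.1% fell. The share that passed is close to the background in this setting and is no result about these genes. It was 60.5% with the scanner software's own processed signals, against 74.4% of all features, and 66.7% with median centring in place of loess, against 73.6%. Their median log2 ratio was -0.055, with the middle 50% between -0.23 and 0.081, and the median over all features was 0.00. The balance between genes that rose and fell depended on the processing. With processed signals 28 rose and 21 fell, and with median centring 27 rose and 27 fell, with family medians of 0.010 and 0.016. Changes were also small. The median absolute log2 ratio was 0.16, against 0.19 over all features. Only 4 members (4.94%) differed at least 1.5-fold, all lower, against 10.9% of all features.

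**Figure D1:**
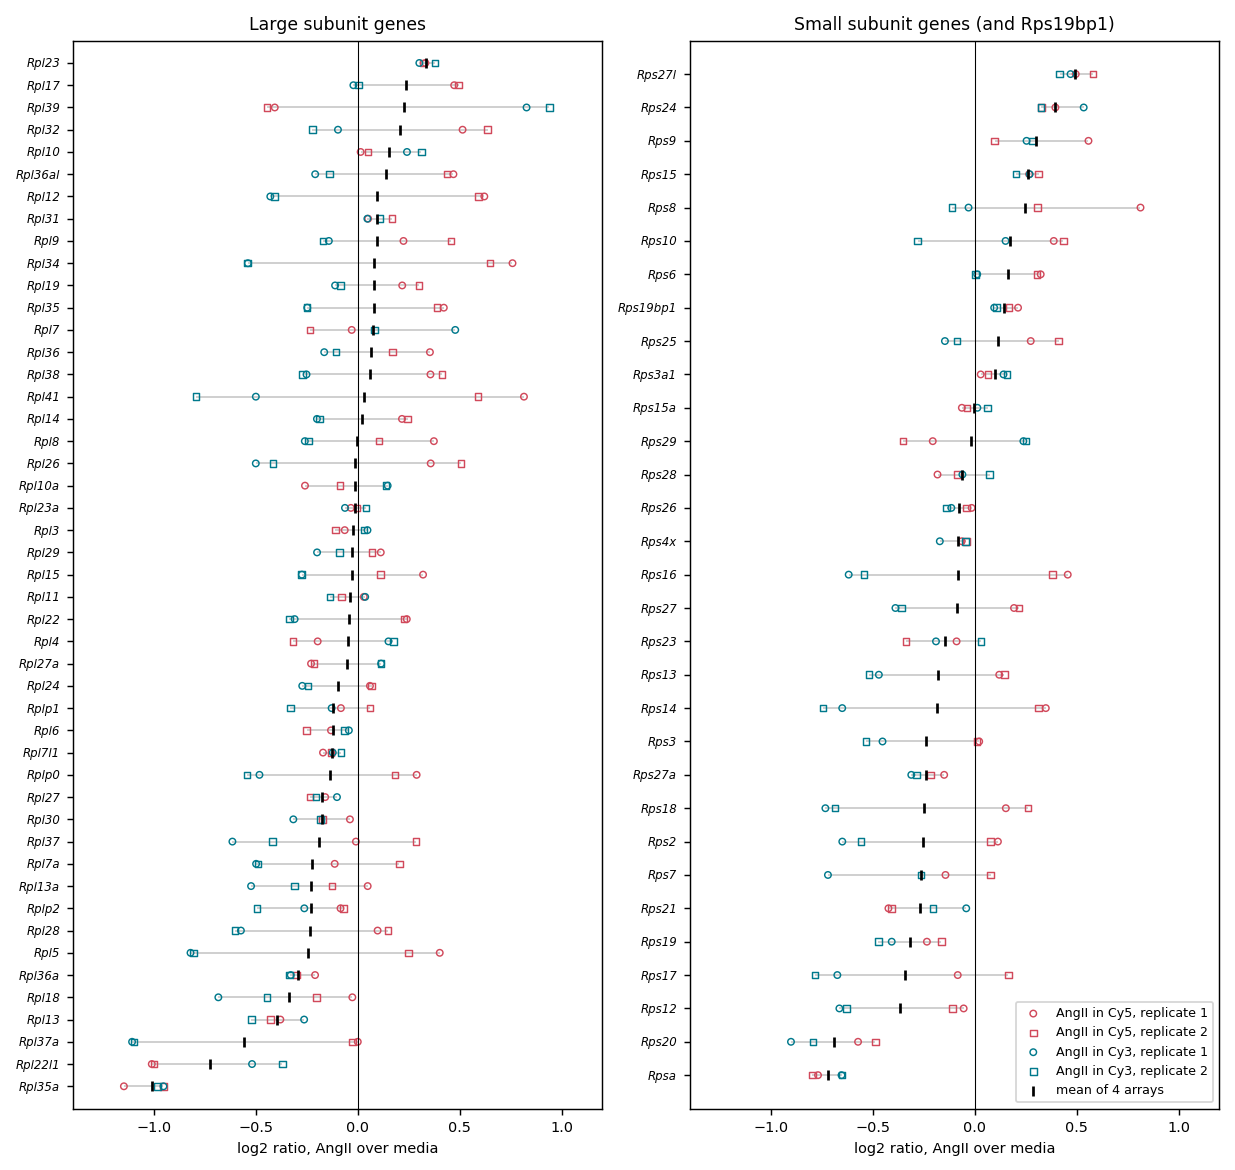
Log2 ratio of AngII over media (x axis) for 78 of the 81 tested genes on each of the 4 arrays, large subunit genes on the left, small subunit genes and Rps19bp1 on the right, sorted by the mean, which is the black bar. Circles are replicate 1 and squares replicate 2, and colours give the dye that held AngII. Means run from -1.01 for Rpl35a to 0.49 for Rps27l, and in many genes the red and teal marks lie on opposite sides of 0.

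The largest fall was that of Rpl35a, a large subunit protein gene that is mutated in some patients with Diamond-Blackfan anaemia. Its ratio was -1.15 and -0.96 on the arrays with AngII in Cy5 (replicates 1 and 2) and -0.95 and -0.98 on those with AngII in Cy3. The mean of -1.01 (SE 0.03, n = 2 replicate ratios) is a 2.02-fold lower level (limma adjusted p = 1.74e-20), and the arrays hardly differed. Rpl35a is also one of the dimmer members, at a mean log2 intensity of 11.5. Rpl22l1 encodes a paralog that can replace Rpl22 in the large subunit. It had -1.01 and -1.002 with AngII in Cy5 but -0.52 and -0.37 with AngII in Cy3, so it was lower on all 4 arrays by an amount that differed between the orientations (mean -0.73, SE 0.03, adjusted p = 3.55e-17).

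Rpsa encodes a small subunit protein that is also known as a laminin receptor precursor. Its ratios were -0.77 and -0.80 with AngII in Cy5 and -0.66 and -0.65 with AngII in Cy3, a mean of -0.72 (SE 0.03, adjusted p = 2.61e-17). The other probe of Rpsa had -0.47, so both probes were lower. Rps20, in the head of the small subunit, had -0.57 and -0.49 with AngII in Cy5 and -0.90 and -0.80 with AngII in Cy3, a mean of -0.69 (adjusted p = 1.43e-16). These 4 genes are the ones past 1.5-fold, and each was lower on every array.

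The next in order, Rpl37a, shows how a mean can hide the orientations. This gene of a zinc-binding large subunit protein had -0.0008 and -0.03 with AngII in Cy5 and -1.11 and -1.10 with AngII in Cy3. Its mean of -0.56 (adjusted p = 8.2e-15) thus came from the arrays of a single orientation. Rpl13, the sixth lowest, was lower on all arrays, with -0.38 and -0.43 in one orientation and -0.26 and -0.52 in the other (mean -0.40, adjusted p = 8.61e-11), and its other probe had -0.34. Falls of 0.24 to 0.37 with the same sign on every array were also seen in Rps12, Rpl18, Rps19, Rpl36a, Rps21 and Rps27a. Below that range Rplp2 fell by 0.23, Rpl30 by 0.18 and Rpl27 by 0.18, again with 1 sign on all arrays. With processed signals Rps21 (-0.12, adjusted p = 0.0419) passed without that constant sign, Rplp2 (-0.061, adjusted p = 0.164) and Rpl27 (-0.10, adjusted p = 0.0569) lost both the call and the constant sign, and Rpl30 (-0.28) kept both.

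Rises were smaller than the largest falls. Rps27l, a paralog of Rps27 known as a p53 target, rose most, with 0.49 and 0.58 when AngII was in Cy5 and 0.47 and 0.42 when it was in Cy3 (mean 0.49, SE 0.03, adjusted p = 1.66e-13). Its parent Rps27 had 0.19 and 0.22 against -0.39 and -0.36, and a mean of -0.09 (adjusted p = 0.0244) whose sign turned with the scaling. It was 0.064 with processed signals (adjusted p = 0.187) and 0.00079 with median centring (adjusted p = 0.986). Without a filter the call was lost as well (adjusted p = 0.076). Rps24, another gene of the Diamond-Blackfan group, had 0.39 and 0.33 against 0.53 and 0.32 (mean 0.40, adjusted p = 7.78e-11), above 0 on every array.

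Rpl23, whose protein can bind Mdm2, was the highest large subunit gene. Its ratios were the most even of the 6 highest, 0.33 and 0.32 with AngII in Cy5 and 0.30 and 0.38 with AngII in Cy3 (mean 0.33, adjusted p = 7.08e-10). Yet the other Rpl23 probe had -0.14, so the direction of this gene rests on the probe. Rps9, a small subunit protein that affects decoding accuracy, had 0.56 and 0.10 against 0.25 and 0.28 (mean 0.30, adjusted p = 1.08e-07). Rps15 had 0.27 and 0.31 against 0.27 and 0.20 (mean 0.26, adjusted p = 6.49e-08). Among the 6 highest genes 5 belong to the small subunit.

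Genes that passed the test with the same sign on all 4 arrays numbered 32 of 81 (39.5%), 11 higher and 21 lower. Over all features 57.7% did so, 30.3% higher and 27.4% lower. With the scanner software's processed signals 24 of these 32 again passed with that sign on all arrays, 10 higher and 14 lower. These are 29.6% of the 81 genes, 12.3% higher and 17.3% lower, and over all features the same criteria took 53.7%, 28.3% higher and 25.5% lower. They include Rpl35a, Rpl22l1, Rpsa, Rps20 and Rpl13 on the lower side and Rps27l, Rps24, Rpl23, Rps9 and Rps15 on the higher side. Under the 4 ways of scaling the arrays that were run, 39 genes passed with the same sign in all 4, 22 higher and 17 lower. That is 48.1% of the family (27.2% higher and 21.0% lower), against 65.6% of all features (34.4% higher and 31.2% lower). A further 18 genes had a mean whose sign turned in at least 1.

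Many ribosomal protein genes gave another ratio in each dye orientation. The turned ratio with AngII in Cy5 minus that with AngII in Cy3 would be 0 if the dyes read the same RNAs alike. It passed limma's test in 54 of 81 genes (66.7%), 45 of them higher with AngII in Cy5 and 9 lower. The background is 56.7% of all features, with 35.5% higher and 21.3% lower. With processed signals 31 genes were higher and 17 lower (43.9% of all features passed), and with median centring all 81 were higher (86.9%). The median difference was 0.30 over the ribosomal protein genes and 0.06 over all features. The median sizes of the difference and of the AngII ratio were 0.38 and 0.16 over the members. Over all features they were 0.20 and 0.19. The difference is the gap between the orientations and the AngII ratio is their mean, so these sizes are not on the same scale. Taken as the distance of each orientation from their mean, the difference had an SD of 0.23 over the members, and the AngII ratio 0.26. Over all features these SDs were 0.16 and 0.38. The orientations had opposite signs in 43 members (53.1%) and in 30.9% of all features. Of these 43, 34 were above 0 with AngII in Cy5 and 9 below, and 26 still passed the test of the mean.

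**Figure D2:**
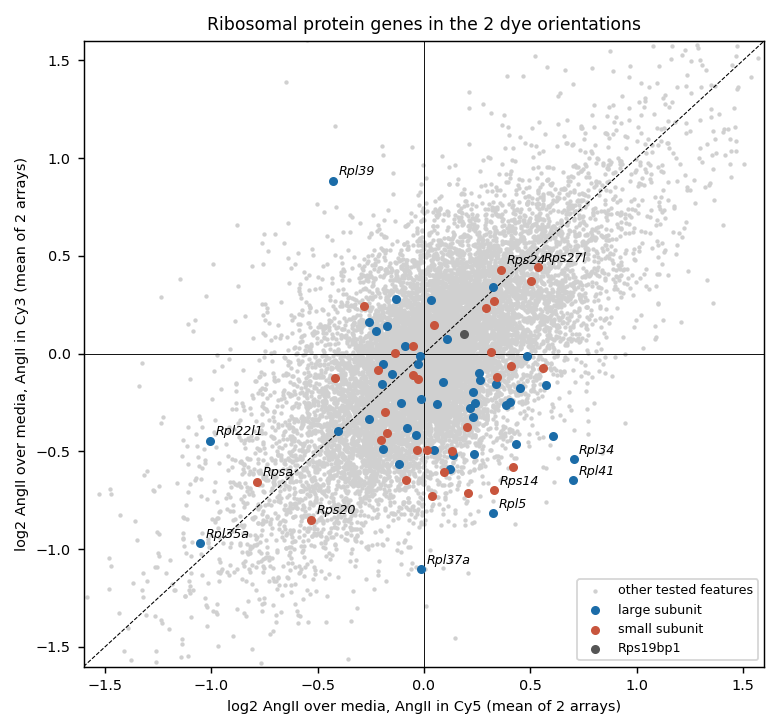
Each point is a tested feature, with its mean log2 ratio of AngII over media on the 2 arrays with AngII in Cy5 (x axis) and on the 2 with AngII in Cy3 (y axis). Blue points are large subunit genes, red points small subunit genes, the dark point Rps19bp1 and grey points other features, of which those outside the axes are not drawn; the dashed line marks equal ratios. Rpl35a, Rpsa and Rps27l lie near the line, while Rpl41, Rpl34, Rpl5 and Rpl39 lie far from it.

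Rpl41, which encodes the smallest ribosomal protein, had the largest such difference. Its ratio was 0.81 and 0.59 with AngII in Cy5 and -0.50 and -0.79 with AngII in Cy3, so the mean of 0.03 (adjusted p = 0.559) hides values far from 0 on both sides. The difference of 1.35 had an adjusted p of 6.51e-06. With processed signals the mean was 0.22 and passed (limma adjusted p = 0.0100). Rpl34 had 0.76 and 0.65 against -0.54 and -0.54, a difference of 1.24, and its other probe a difference of 0.98. Its mean of 0.08 passed (adjusted p = 0.034), while the mean of the other probe was -0.33.

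Rpl39, whose protein lines the exit tunnel for the new peptide, went the other way. It had -0.41 and -0.45 with AngII in Cy5 and 0.83 and 0.94 with AngII in Cy3, a difference of -1.31. Its mean of 0.23 (adjusted p = 7.55e-07) is a mean of values with opposite signs. Rpl5, which carries 5S ribosomal RNA into the large subunit together with Rpl11, had 0.40 and 0.25 against -0.82 and -0.81, a difference of 1.14. Rps14, the gene of a small subunit protein lost in the human 5q deletion, had 0.35 and 0.31 against -0.65 and -0.75, a difference of 1.03. In these genes, and in Rpl37a with 1.09, arrays of the same orientation lay close together and the groups of each orientation did not overlap. With Rpl41 and Rpl34 they are the 6 genes named for the largest differences, so the gap between orientations follows largely from that choice.

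The same pattern ran through the family. Across the 81 genes the ratios of the 2 arrays with AngII in Cy5 correlated at Pearson r = 0.92 and those of the 2 with AngII in Cy3 at 0.94. Between the arrays of a dye swap r was 0.18 for replicate 1 and 0.07 for replicate 2. Over all features the same-orientation values were 0.96 and 0.97 and the dye-swap values 0.67 and 0.68. These are descriptions across genes that share arrays and RNA, not tests. On the arrays with AngII in Cy5, 44 and 47 of the 81 genes were above 0, and on those with AngII in Cy3 21 and 23 were. Family medians were 0.03 and 0.08 in the first orientation and -0.21 and -0.24 in the second, where all features had 0.03, 0.04, -0.02 and -0.03.

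**Figure D3:**
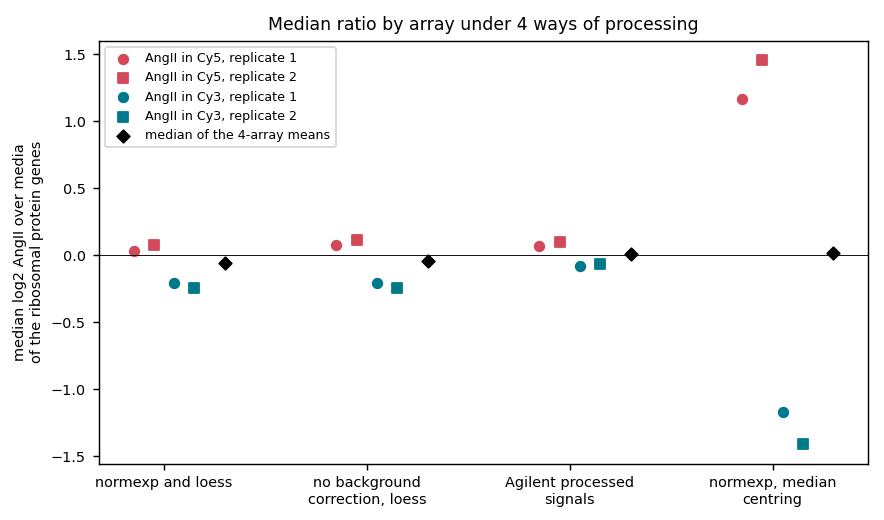
Median log2 ratio of AngII over media of the 81 genes on each array (circles for replicate 1, squares for replicate 2, red with AngII in Cy5 and teal with AngII in Cy3) and of the 4-array means (diamonds), under 4 ways of processing the signals. The orientations lie on opposite sides of 0 under each, closest with the processed signals (0.07, 0.10, -0.08 and -0.07) and farthest with median centring (1.17, 1.46, -1.17 and -1.41). Medians over all features, not drawn, also lay on opposite sides of 0 under each. They were 0.03, 0.04, -0.01 and -0.01 with the processed signals and 0.52, 0.62, -0.44 and -0.59 with median centring.

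Spots of these genes were bright. Of 81 genes 74 lay in the brightest 10% of tested features, and their median orientation difference was 0.34, against -0.04 for the other 1427 features of that brightness. The 61 genes above the 98th percentile of brightness had a median difference of 0.46, the 13 between the 90th and the 98th 0.09, and the 7 below the 90th 0.03. The other features had a median of 0.05 above the 98th percentile (240 features) and of -0.05 between the 90th and the 98th (1187). The AngII ratio had medians of -0.08, 0.14 and -0.18 in the same 3 ranges. The part of brightness in these values was not tested.

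**Figure D4:**
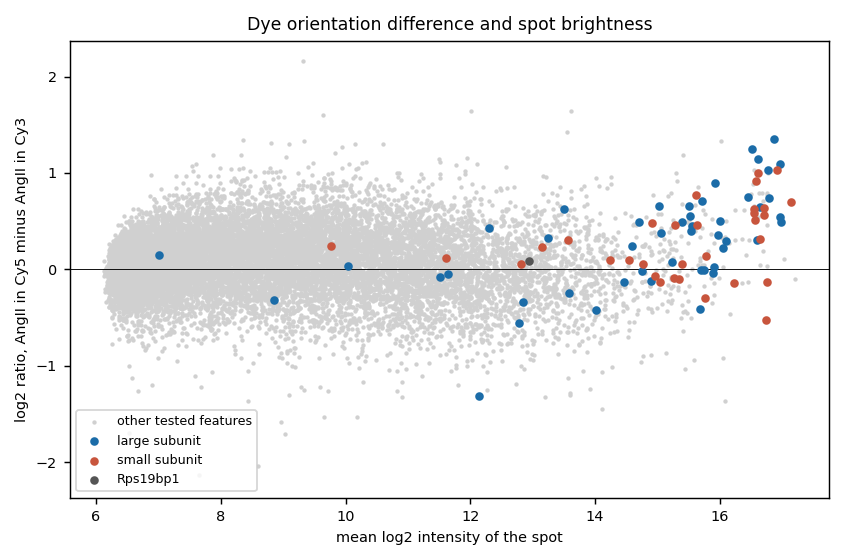
Difference between dye orientations in the log2 ratio of AngII over media (y axis) against the mean log2 intensity of the spot (x axis), for large subunit genes (blue), small subunit genes (red), Rps19bp1 (dark) and other tested features (grey). Most ribosomal protein genes sit at the bright end, where 44 of the 74 genes in the brightest 10% passed above 0 and 8 below. These are 59.5% and 10.8%, against 29.7% and 35.5% of the other 1427 features of that brightness.

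Large and small subunit genes overlapped widely. Of 48 large subunit genes 12 rose, 20 fell and 16 did not pass (median -0.03), and of 32 small subunit genes 10 rose, 19 fell and 3 did not pass (median -0.08). Thus 66.7% of the large and 90.6% of the small subunit genes passed, against 77.3% of all features. The difference of these medians, large minus small, was 0.05 over the arrays. On single arrays it was 0.01 and -0.01 with AngII in Cy5 and -0.07 and -0.01 with AngII in Cy3. It had no constant sign, and it was -0.12 over the means of the arrays with AngII in Cy3 alone. The orientation difference had medians of 0.34 in the large and 0.24 in the small subunit, and passed in 35 of 48 and 19 of 32 genes. These are 72.9% and 59.4%, against 56.7% of all features. No test between the subunits was made, since their genes are not replicates.

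**Figure D5:**
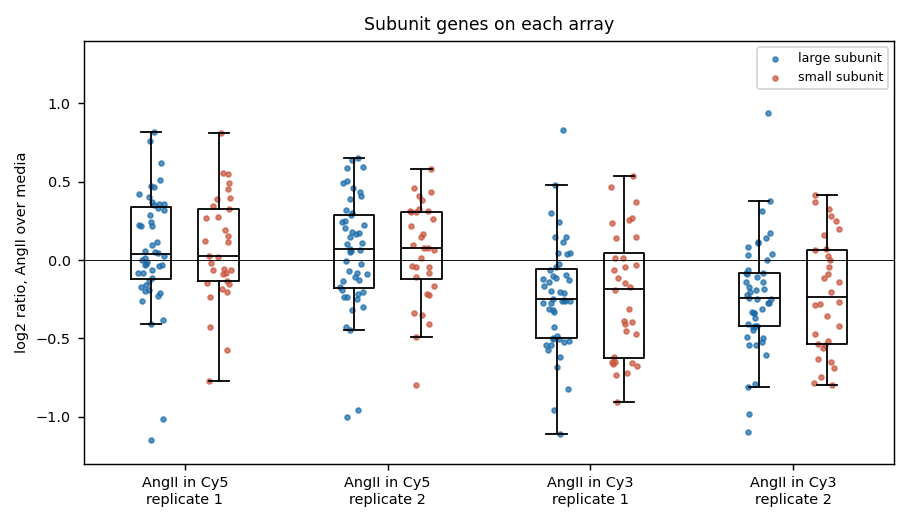
Log2 ratio of AngII over media (y axis) of large (blue) and small (red) subunit genes on each of the 4 arrays, each point 1 gene. Boxes span the middle 50% with the median as a line, and whiskers reach the farthest gene within 1.5 box lengths. Both subunits sit lower on the arrays with AngII in Cy3, where the large subunit medians were -0.25 and -0.24 and the small subunit medians -0.18 and -0.24.

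The stalk of the large subunit, where elongation factors bind, is built by Rplp0, Rplp1 and Rplp2. All 3 fell in the mean, by 0.14, 0.12 and 0.23, but none kept its call under all 4 ways of scaling. With processed signals Rplp1 had -0.0051 (limma adjusted p = 0.88) and Rplp2 -0.061 (adjusted p = 0.164), and with median centring Rplp0 had -0.062 (adjusted p = 0.17) and Rplp1 -0.026 (adjusted p = 0.543). Rplp2 was lower on every array (-0.09 and -0.07 against -0.26 and -0.49). Rplp0 had 0.29 and 0.18 against -0.48 and -0.54, an orientation difference of 0.75, and at its other probe that difference was -0.59. Rplp1 had -0.08 and 0.06 against -0.13 and -0.33. Rpl3, near the peptidyl transferase centre, had -0.06 and -0.11 against 0.05 and 0.03 and did not pass. Rpl10, which joins the large subunit late in its maturation, rose by 0.15, with 0.01 and 0.05 against 0.24 and 0.31.

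Proteins with known roles beyond the ribosome or in disease also went both ways. Rps6, the substrate of S6 kinase downstream of mTOR, rose by 0.16 (adjusted p = 0.000112), with 0.32 and 0.31 against 0.01 and 0.003. Rps19, the gene most often mutated in Diamond-Blackfan anaemia, fell by 0.32, with -0.24 and -0.16 against -0.41 and -0.47. Rpl11, the partner of Rpl5, had 0.03 and -0.08 against 0.04 and -0.14, near 0 throughout. Rpl13a, a component of an interferon-induced silencing complex, fell by 0.23, with 0.05 and -0.13 against -0.52 and -0.31, but had 0.016 with processed signals (adjusted p = 0.714). Rpl38, which is needed for translation of some Hox transcripts in mice, had 0.36 and 0.41 against -0.25 and -0.27, and its mean of 0.06 did not pass. It passed as higher without background correction (0.075, limma adjusted p = 0.0191), with processed signals (0.18, adjusted p = 0.0174) and with median centring (0.14, adjusted p = 0.00585). Rps27a, made as a fusion with ubiquitin, fell by 0.24 with -0.15 to -0.31 over the 4 arrays.

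Paralogs were set beside their parents. Rpl22l1 was lower on every array, while Rpl22 had 0.24 and 0.23 against -0.31 and -0.34, a mean of -0.05 that did not pass. Rpl36al rose by 0.14, with 0.47 and 0.44 against -0.21 and -0.14, and Rpl36a fell by 0.29, with -0.21 and -0.30 against -0.33 and -0.34. Other Rpl36a probes lay between -0.31 and 0.09. Rpl7l1 fell by 0.13 with -0.17 to -0.08 over the arrays, a call lost with median centring (-0.063, adjusted p = 0.141), and Rpl7 had -0.03 and -0.23 against 0.48 and 0.08 and did not pass. Rpl7 passed as higher with median centring (0.17, limma adjusted p = 0.0273) and without background correction (0.090, adjusted p = 0.00501). Rps19bp1 rose by 0.14, with 0.09 to 0.21 over the arrays and 0.17 at its other probe. The differences between paralog and parent were not tested, and probes of this family can also read near-identical copies and processed pseudogenes, so the split among such copies is uncertain.

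Several probes were available for 27 of the 81 genes. None had a probe more than 1.5-fold apart from the brightest, and the widest gap was 0.47 on the log2 scale, in Rpl23. Even so, the sign of the AngII ratio turned between probes in 12 of the 27, among them Rpl19, Rpl23, Rpl34, Rps18 and Rps3. In 6 of the 12 the brightest probe was itself within 0.1 of 0. The probe of the other sign was dim in Rpl29, Rpl37, Rpl7a and Rps3a1, at a mean log2 intensity of 7.01, 6.94, 6.60 and 6.53. In the rest of the 12 the lowest was 11.4, in Rpl23. The share with a turned sign was not counted over all features with several probes. The sign of the orientation difference turned in 10, as in Rplp0 and in Rps3, which had 0.51 at its brightest probe and -0.44 at the other. A direction given for a gene in this range of ratios therefore holds for the probe named.

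Members with and without a pyrimidine start at the annotated first base of any of their windows overlapped widely in the AngII ratio. The 13 tested genes with such a start had a median of -0.03 and a range of -1.01 to 0.17, and the 49 matched genes without it -0.08, with a range of -0.73 to 0.49. Rpl35a and Rps6, each with a start printed above with CTCTT in capitals, fell by 1.01 and rose by 0.16. The other annotated windows of Rpl35a had no such start. The median orientation difference was 0.48 with and 0.10 without the start. These are descriptions of groups of unequal size, and no test was made. Annotated starts can lie some bases from those in use, so the split need not separate messengers with a TOP tract from those without.

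Genes around the ribosome were read from lists. Fau and Rack1, which encode ribosomal proteins under symbols that the rule does not take, had means of -0.12 and 0.10, and both passed. Rack1 showed opposite signs by orientation, with 0.51 and 0.47 against -0.27 and -0.29. Ribosome biogenesis factors, which process ribosomal RNA and assemble the subunits, had 35 tested of 40, of which 23 fell, 8 rose and 4 did not pass. The median was -0.24. The shares are 65.7% lower and 22.9% higher, against 38.1% and 39.1% of all features. It was -0.20 on the arrays with AngII in Cy5, -0.10 on those with AngII in Cy3, and between -0.24 and -0.15 under the 4 ways of scaling. The Grwd1 gene of a histone-binding assembly factor fell by 0.92, Rrp12 by 0.71, and Tcof1, the Treacher Collins syndrome gene that acts with RNA polymerase I, by 0.51 (-0.83 to -0.19). Wdr12, of the PeBoW complex, rose by 0.47 (0.34 to 0.61).

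Other transcripts of translation went both ways. Of 20 tested elongation factors and other genes known for TOP messenger RNAs, 10 fell (50%), 6 rose (30.0%) and 4 did not pass, against 38.1% lower and 39.1% higher over all features. Their median of -0.11 was -0.30 on the arrays with AngII in Cy5 and 0.047 on those with AngII in Cy3. Eef2, which moves the ribosome along the messenger, fell by 1.095 (-1.56 to -0.65 over the arrays), Eif4b by 0.47 and Eif3e by 0.29, and Hnrnpa1 rose by 0.58 (0.53 to 0.65). Of 26 initiation factors 9 rose, 9 fell and 8 did not pass, so that 69.2% passed, against 77.3% of all features. Their median was 0.022, and -0.0074 with processed signals. The scaffold gene Eif4g1 fell by 0.79 (-1.31 to -0.25), the helicase gene Eif4a1 by 0.66, Eif5a by 0.57 and Eif5 by 0.53. Of 21 tested regulators of ribosomal protein synthesis, the list that holds mTOR partners, S6 kinases and MYC, 9 fell (42.9%), 7 rose (33.3%) and 5 did not pass (median -0.062), again beside 38.1% and 39.1% of all features. Akt1s1, which encodes the mTORC1 inhibitor PRAS40, fell by 0.91 (-0.98 to -0.80), Rps6ka1 by 0.68 and the MYC partner Max by 0.56, and Deptor, another mTOR inhibitor, rose by 0.76 (0.67 to 0.86). Mtor itself was not well above background.

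The authors' deposited table gives its own log2 ratio and call for every spot. Calls in the authors' deposited table are higher for 33 of the 120 ribosomal protein spots and lower for 29 (51.7%), against 38.9% of the 43379 spots in the authors' deposited table. Those spots include the dim ones that were filtered out here, so the share is no result about these genes. Without the filter 65.5% of the members and 36.6% of all features passed here, and with it 76.5% and 77.3%. The median log2 ratio of these 120 spots in the authors' deposited table is 0.014. For the 81 probes used here the authors' deposited ratios correlated with the means above at r = 0.98 and had the same sign in 68. The small median of the 120 spots was above 0 in the authors' deposited table, and that of the 81 genes here was below 0. These sets differ, so the part of the processing in this was not tested.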

How the data were processed

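RNA from intact mouse ureteric buds (300 ng of total RNA per labelling) was read on 4 two-colour Agilent arrays. Per the file headers, the scanner software was Feature Extraction 10.5.1.1. The deposited intensity values are median pixel signals of each spot and of its surroundings, with no correction. The same files hold processed intensities, from which background and dye trend were already removed per the file headers. The authors' deposited table gives, for each spot, a log2 ratio and an adjusted p-value, and a score of -1, 0 or 1 marks the call. The submitters' processing notes name limma without a version. How that table was normalised and modelled is not given in the sources used here.

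Log ratios were made with limma 3.58.1 in R 4.3.3 by normexp (offset 50) and loess within each array, control spots having weight 0. Spots flagged as outliers (540) were left out, none of them of a ribosomal protein probe. A probe was kept if all 4 arrays read it as well above background in AngII RNA, or all 4 in media RNA, which left 19383 probes. The brightest probe stood for a gene. Dye-swapped arrays were turned and averaged within a replicate number, and both averages were tested against 0 with lmFit and eBayes, with Benjamini-Hochberg adjustment over all features. The orientation difference was tested in the same way. Accessions were matched to RefSeq genes. Scripts were tested on simulated data. The members and lists were chosen with earlier results of these data known. The genes given by array are the 6 highest, the 6 lowest, the 6 with the largest orientation difference, paralogs with their parents, and genes fixed by name. Other members may also be named, and some genes are not reported here. List examples are up to 4 members past the threshold with 1 sign on all arrays and the largest mean ratios. Alternatives were other background corrections, normalisations, filters, probe choices and members, each replicate or orientation alone, and the replicate number as a block. RNAs of 1 number share their arrays, so a ratio is already paired.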

Additional observations from a re-analysis of the deposited data

Results flagged for a closer look

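The ratio of AngII over media differed between the dye orientations, which read the same RNAs, in 54 of the 81 ribosomal protein genes by limma's test of the difference itself. That is 66.7% of these genes, against 56.7% of all features. The difference, with AngII in Cy5 minus with AngII in Cy3, was largest in Rpl41 at 1.35 (adjusted p = 6.51e-06). It was -1.31 in Rpl39 and 1.24 in Rpl34. Rpl5 had 1.14, Rpl37a 1.09 and Rps14 1.03. In these 6 genes both replicates showed the sign of the difference, which follows largely from naming them for its size. What sets the difference was not tested.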

How the results depend on the processing

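The family median of -0.055 had no fixed sign. It was 0.010 with processed signals, 0.016 with median centring and 0.046 on the arrays with AngII in Cy5, and it was -0.23 on those with AngII in Cy3. It was -0.045 without background correction, -0.079 when a gene's probes were averaged, -0.060 without paralogs and Rps19bp1, and -0.072 and -0.066 with replicate 1 or 2 left out. The difference between subunit medians was -0.12 on the arrays with AngII in Cy3 and 0.015 to 0.074 with a replicate left out. Genes that fell numbered 21 with processed signals and 22 on the arrays with AngII in Cy5, and those that rose 36 on the latter and 15 on the arrays with AngII in Cy3. With the replicate number as a block and no dye term 5 rose and 8 fell (16%, against 30.9% of all features), and with a dye term beside the block 22 rose and 39 fell (75.3%, against 76.0%). The median orientation difference of 0.30 was 0.34 without background correction, and processed signals gave 0.15. It was 2.56 with median centring (1.22 over all features), 0.27 with no filter, 0.23 when a gene's probes were averaged, 0.19 with every probe as a feature and 0.28 to 0.31 with a replicate left out. Its count was 48 with processed signals and 81 with median centring, against 54. Over all features 43.9% passed with processed signals and 86.9% with median centring, against 56.7%.

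Some single genes turned sign. With processed signals these were Rpl5 (0.0013), Rpl13a (0.016), Rpl22 (0.029), Rpl11 (0.034), Rps27 (0.064) and Rpl3 (0.064). With median centring they were Rps27 (0.00079), Rpl22 (0.047), Rpl3 (0.067) and Rpl11 (0.077). On the arrays with AngII in Cy5, Rpl7 (-0.13), Rpl39 (-0.43), Rps27 (0.20), Rpl22 (0.23), Rplp0 (0.23), Rpl5 (0.33) and Rps14 (0.33) turned, and on those with AngII in Cy3, Rpl36al (-0.17), Rpl38 (-0.26), Rpl34 (-0.54), Rpl41 (-0.65) and Rpl3 (0.038). Averaging a gene's probes turned Rpl7 (-0.0050) and Rpl34 (-0.12). Without replicate 1 and without replicate 2 Rpl7 had -0.077 and 0.22, Rpl41 -0.10 and 0.16, and Rpl11 -0.11 and 0.032. Among the named genes, some that had not passed did so as higher under another scaling. These were Rpl38 and Rpl7 without background correction and with median centring, and Rpl38 and Rpl41 with processed signals. The cause of these changes was not tested. Of the 35 genes of the naming rule, Rpl41, Rpl22, Rpl7, Rpl3, Rpl11 and Rpl38 had not passed to begin with. Among those that had, 17 no longer passed with the block and no dye term. With the dye term beside it, all 35 stayed as they were, passed or not passed.

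Counts have no value with a replicate left out, since 1 ratio then remains, and leaving out saturated spots was not run because no spot was saturated. With 1 independent pair of RNA samples, no value here has a check in other buds.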

Other observations

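The mitochondrial ribosome, whose proteins are also encoded in the nucleus, was read alongside. Of 78 tested Mrpl and Mrps genes 50 rose (64.1%), 14 fell (17.9%) and 14 did not pass, against 39.1% higher and 38.1% lower over all features, and the median was 0.15. It was 0.24 on the arrays with AngII in Cy5, 0.060 on those with AngII in Cy3, and between 0.15 and 0.23 under the 4 ways of scaling. Mrpl2, Mrps15 and Mrpl15 had the highest means (0.58, 0.57 and 0.51) and Mrps6, Mrpl10 and Mrpl37 the lowest (-1.07, -0.34 and -0.27) among those with 1 sign in both orientations; these 6 were named after their values were seen. Their median orientation difference was 0.20. Proteasome subunit genes, another family of a large complex, rose in 25 of 38 (65.8%), fell in 7 (18.4%) and did not pass in 6, beside the same shares over all features. They had a median of 0.13 and a median orientation difference of 0.0061. The difference between these families and the cytosolic ribosomal proteins was not tested.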
